A study of Saccharomyces cerevisiae with 16 samples.

Results

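The 10 genes described here encode sulfate assimilation and methionine uptake in baker's yeast, and they were chosen by name: SUL1, SUL2, MET3, MET14, MET16, MET5, MET10, MET17, MET6 and MUP1. Each of the 10 had exactly 1 probe set on the array, out of 5449 genes with a named probe set, and all 10 were among the 5213 genes whose signal allowed a test. The samples, 16 microarrays in all, came from the haploid, prototrophic laboratory strain CEN.PK113-7D of Saccharomyces cerevisiae. The cells grew in mineral salts medium that carried ammonia as nitrogen source, first with glucose limiting growth and then, as the feed glucose was raised, with ammonia limiting it. The strain was the same throughout, and the groups differ in oxygen, feed glucose and time. The aerobic early samples were taken at 0, 4.1 and 6.85 h with 1, 5.51 and 8.5 g/L glucose, the aerobic mid samples at 9.6 and 14.5 h with 11.56 and 16.96 g/L, and the aerobic late samples at 27.25, 42.65 and 53.95 h with 30.97, 47.91 and 60.34 g/L. The anaerobic early samples were taken at 0, 4.35 and 10.38 h with 1, 4.87 and 10.31 g/L, the anaerobic mid samples at 16.88 and 26.52 h with 16.19 and 24.86 g/L, and the anaerobic late samples at 35.67, 42.85 and 50.85 h with 33.1, 39.56 and 46.75 g/L.

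Yeast takes up sulfate through the permeases Sul1 and Sul2. Met3, the ATP sulfurylase, and Met14, the adenylylsulfate kinase, activate it, Met16 reduces the activated sulfate to sulfite, and the sulfite reductase made of Met5 and Met10 reduces sulfite to sulfide. Met17 joins sulfide to O-acetylhomoserine to give homocysteine, and Met6 methylates homocysteine to methionine. Mup1 is the high-affinity methionine permease, which brings in the end product from outside. The transcription activator Met4 acts through Cbf1, Met28, Met31 and Met32 on most of these genes, and the ubiquitin ligase subunit Met30 restrains Met4 when sulfur compounds are plentiful. The medium of these cultures is described only as mineral salts medium, and the sulfate and methionine in it are not stated in the sources used here.

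The values are log2 signals, and a level is compared only within a gene, because different probe sets bind with different strength. Each oxygen condition is 1 series of serial samples, so a difference by oxygen may equally be one between cultures. Each p-value rests on the scatter of serial samples within a phase, pooled over all groups. That scatter may be technical in part, but it also holds the course of time and feed glucose within a phase. MUP1 read 12.39, 11.71 and 9.87 in the anaerobic early samples. DAL80 read 6.11, 13.08 and 13.41 in the anaerobic late ones. A gene that was not called may therefore still have changed. The labels do not say at which sample ammonia became limiting. The mean of 5 nitrogen limitation markers (GAP1, MEP2, DAL80, DAL5 and PUT1) lay between 10.68 and 12.31 in the aerobic samples to 6.85 h and between 15.40 and 15.48 from 9.6 h on. In the anaerobic series it lay between 9.89 and 12.84 to 35.67 h and was 14.52 and 14.68 at the last 2 samples. The mannoprotein gene DAN1, expressed without oxygen, stayed between 1.96 and 2.05 with oxygen. Without oxygen it read 10.06 at 0 h, was lower still at 4.35 h and ran from 14.53 to 15.75 after that. The mean of 3 genes expressed with oxygen (CYC1, CYB2 and COX5A) was 14.64 at anaerobic 0 h and 14.63 at aerobic 0 h. In the anaerobic series it was 13.04 at 4.35 h and 9.23 at 50.85 h. The anaerobic early samples thus include samples in which these markers were still falling. The aerobic 9.6 h array had the lowest median correlation with its series, 0.870, where its 7 companions had 0.923 to 0.960, and results that rest on it are given with and without it. Array medians were 11.33 to 11.51 in the aerobic and 10.78 to 10.97 in the anaerobic series.

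Most of the 10 genes varied little along both series, and the permease MUP1 alone among the 10 moved over a wide range. The range from the lowest to the highest of 16 arrays was 4.39 log2 units for MUP1, 2.12 for MET14, 1.33 for SUL1, 1.32 for SUL2 and 1.02 for MET5. The other 5 genes ranged over 0.47 (MET17), 0.53 (MET10), 0.65 (MET16), 0.77 (MET3) and 0.78 (MET6). The median range of the 10 genes was 0.90, against 1.72 over all tested genes, for which the interquartile range ran from 1.17 to 2.73, and 8 of the 10 lay below the median of all genes. The aerobic 9.6 h array alone set several of these ranges: over the other 15 arrays MET14 ranged over 1.01, SUL2 over 0.60, MET6 over 0.28 and MET5 over 0.26, and the other 6 were as before. The median of the 10 was then 0.63, against 1.42 over all tested genes, and 9 of the 10 lay below that. Of the tested genes on all 16 arrays 0.767% had a smaller range than MET17 and 1.44% a smaller one than MET10, while 88.8% had a smaller one than MUP1. The highest values lie near the top of the scale, where the largest value of any probe set was 16.75, and whether signal saturation narrowed these ranges was not tested.

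**Figure D1:**
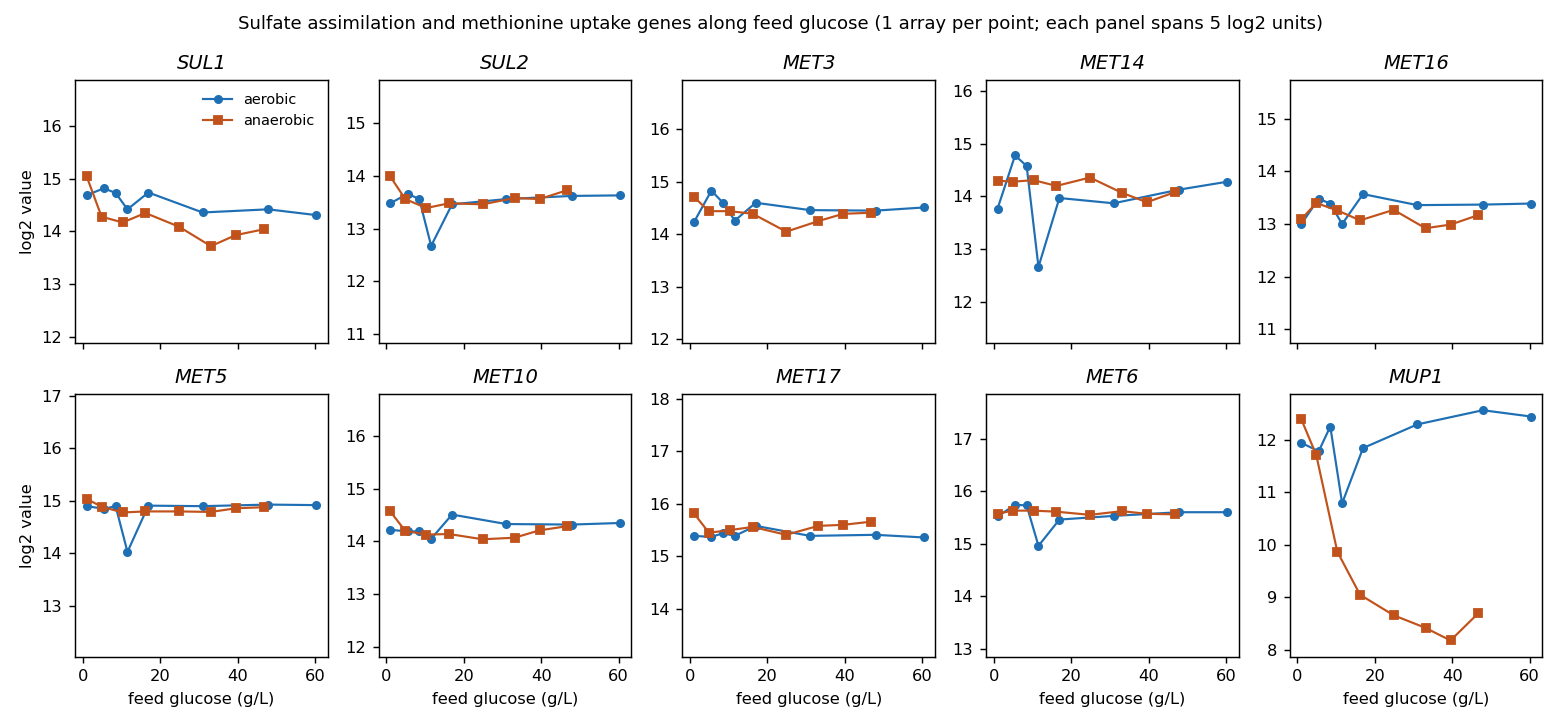
The log2 value of each of the 10 genes (vertical axis) is plotted against feed glucose in g/L (horizontal axis), with 1 point per array for the 8 aerobic and the 8 anaerobic samples. MUP1 fell from 12.39 to values between 8.18 and 9.87 from the third anaerobic sample on. The aerobic and anaerobic lines of most other genes run close together, apart from a low aerobic point at 11.56 g/L in several of them. For SUL1 the anaerobic line starts above the aerobic one at 1 g/L and lies below it at the later samples.

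**Figure D2:**
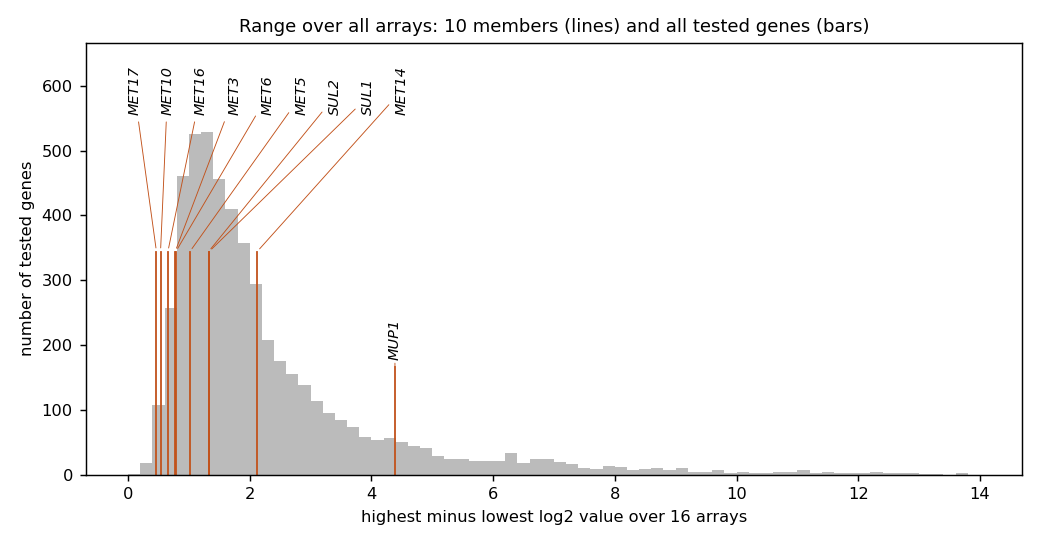
The histogram shows how many of the 5213 tested genes (vertical axis) have each range over the 16 arrays in log2 units (horizontal axis), with the 10 genes marked. Of the 10 genes 8 lie left of the median of all genes at 1.72, and MUP1 lies far right at 4.39.

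The sulfate permeases are given first, and neither was called between early and late samples in either series, as tested below. SUL1 read 14.69, 14.82 and 14.73 in the aerobic early samples, 14.42 and 14.74 in the mid samples, and 14.36, 14.42 and 14.31 in the late ones. In the anaerobic series it read 15.05, 14.28 and 14.17 early, 14.35 and 14.09 mid, and 13.72, 13.93 and 14.04 late. The late samples lay below all early samples of their own series in both cases, and the highest value of the 16 was the anaerobic 0 h sample. SUL2 read 13.48, 13.66 and 13.56 in the aerobic early samples, 12.67 and 13.46 mid, and 13.56, 13.62 and 13.63 late. Anaerobically it read 13.99, 13.56 and 13.39 early, 13.48 and 13.46 mid, and 13.58, 13.56 and 13.73 late. Its early and late samples overlapped in both series, and the aerobic 9.6 h sample was its lowest.

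Of the 2 activating enzymes, MET14 varied more than MET3. MET14 read 13.77, 14.78 and 14.58 in the aerobic early samples, 12.66 and 13.97 mid, and 13.87, 14.13 and 14.28 late, so that the 0 h sample lay with the late samples and not with the other early ones. In the anaerobic series all 8 MET14 values lay between 13.89 and 14.36. MET3, which makes the substrate of Met14, read 14.23, 14.83 and 14.60 early, 14.26 and 14.60 mid, and 14.46, 14.45 and 14.51 late with oxygen, and lay between 14.05 and 14.71 without it. In both genes the aerobic late samples lay between the lowest and the highest early sample.

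Of the reducing enzymes, MET5 kept close to 1 level outside the 9.6 h sample, while MET16 and MET10 varied on other arrays too. MET5, the catalytic subunit of sulfite reductase, read 14.90, 14.85 and 14.90 in the aerobic early samples, 14.03 and 14.91 mid, and 14.90, 14.93 and 14.92 late. Without the 9.6 h sample its aerobic range was 0.09 log2 units, and with that sample it was 0.91. Its anaerobic values lay between 14.78 and 15.04. MET10, the flavoprotein subunit of the same enzyme, did not share so deep a low point and lay between 14.05 and 14.51 with oxygen and between 14.04 and 14.57 without it. MET16, the phosphoadenylylsulfate reductase, lay between 13.00 and 13.57 with oxygen and between 12.92 and 13.40 without it.

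The last 2 biosynthetic steps were nearly flat. MET17 lay between 15.36 and 15.58 with oxygen and between 15.41 and 15.82 without it, with its highest value at the anaerobic 0 h sample. MET6, the cobalamin-independent methionine synthase, lay between 14.96 and 15.74 with oxygen, with the 9.6 h sample lowest. Without oxygen its 8 values lay between 15.55 and 15.63, a range of 0.08.

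With oxygen, none of the 10 genes was called as changed between early and late samples by limma with Benjamini-Hochberg adjustment over all tested genes. Of all tested genes 15.5% were called in this comparison, 11.2% higher and 4.28% lower in the late samples, and 0 of the 10 genes had an unadjusted p under 0.05 either. The median change of the 10 was 0.01, against 0.10 over all tested genes. SUL1 had the lowest value at -0.38 ± 0.20 (± is the standard error of the log2 change throughout; 95% interval -0.81 to 0.04, adjusted p = 0.199). MET14 was at -0.29 ± 0.30 with the interval from -0.94 to 0.37, and MUP1 at 0.44 ± 0.49 with the interval from -0.64 to 1.52. The narrowest interval was that of MET17, from -0.25 to 0.22 around -0.01. Without the anaerobic 0 h array the SUL1 value of -0.38 passed the test (adjusted p = 0.0446). Without both 0 h arrays and the aerobic 9.6 h array, an alternative that drops 3 of the 16 arrays, SUL1 (-0.41), MET14 (-0.59) and MET6 (-0.16) fell, beside 21.4% of all tested genes called lower in that fit.

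Without oxygen, MUP1 fell and the other 9 genes did not pass the test. MUP1 read 12.39, 11.71 and 9.87 in the early samples, 9.05 and 8.66 in the mid samples, and 8.42, 8.18 and 8.70 in the late ones. Every late value lay below every early value, and most of the drop lay between the 4.35 h and 16.88 h samples. Late samples were lower than early ones by 7.41-fold, a change of -2.89 ± 0.49 (95% interval -3.97 to -1.81, adjusted p = 0.00686). Of all tested genes 6.04% were called in this comparison, and 2.34% were called lower. The nitrogen markers missed the threshold of the same limma test. DAL80 was at 4.81 (adjusted p = 0.141), DAL5 at 2.96 (0.0691) and GAP1 at 1.74 (0.219). MEP2 was at 0.68 (0.242) and PUT1 at 0.05 (0.967). Their mean was 10.61 at 35.67 h and 14.52 and 14.68 in the other late samples. A gene not called here thus cannot be read as unchanged under nitrogen limitation. Because the RNA came from whole cultures, fewer cells that express a gene and less RNA per cell cannot be told apart. MUP1 stayed called with any 1 of the 16 arrays left out, at values from -3.62 to -2.35 and adjusted p from 7.52e-05 to 0.0428. It missed the threshold when the anaerobic arrays were fitted alone (adjusted p = 0.0538) and when the 4 lowest were set against the 4 highest feed concentrations (-2.26, adjusted p = 0.0613).

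The fall of MUP1 lay before the late rise of the nitrogen markers in that series. Over the first 3 samples, where MUP1 went from 12.39 to 9.87, the mean of the 5 markers went from 12.84 over 10.93 to 9.89, so both were falling. At 35.67 h the marker mean was 10.61 and MUP1 read 8.42, and over the next 2 samples, where the markers stood at 14.52 and 14.68, it read 8.18 and 8.70. From 35.67 h to the mean of the last 2 samples MUP1 differed by 0.02, the 10 genes differed by -0.09 to 0.27 with a median of 0.07, and the median over all tested genes was 0.06. Over the samples where MUP1 dropped, DAN1 went from 10.06 at 0 h to 14.53 and 15.21 at 10.38 and 16.88 h, and CYC1, the cytochrome c gene expressed with oxygen, read 15.29, 14.37, 13.00 and 12.79. The part of the nitrogen and oxygen markers in the MUP1 levels was not tested.

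SUL1 was next in size without oxygen, at -0.61 ± 0.20 (95% interval -1.03 to -0.18), but its adjusted p was 0.0919. It passed without the anaerobic 10.38 h array (-0.77, adjusted p = 0.0409). With the same 3 arrays dropped, SUL1 (-0.33) and MET16 (-0.31) fell beside MUP1, where 19.7% of all tested genes were called lower. The remaining 8 genes lay between -0.29 (MET14) and 0.02 (MET17), and the median of all 10 was -0.14, against 0.00 over all tested genes. An unadjusted p under 0.05 was reached by 2 of the 10, MUP1 and SUL1.

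**Figure D3:**
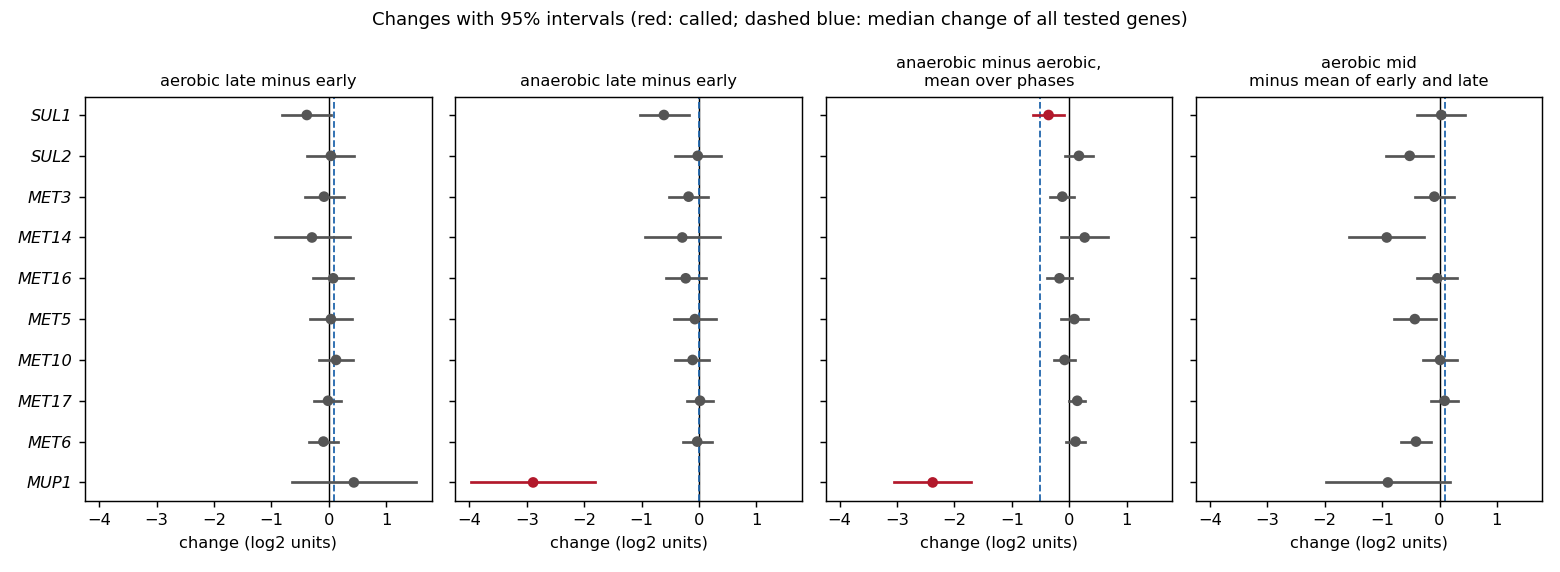
For each of the 10 genes the log2 change with its 95% interval (horizontal axis) is shown in 4 comparisons, with calls in red and the median of all tested genes as a dashed line. MUP1 stands apart at -2.89 in the anaerobic series and lies at 0.44 with an interval across 0 in the aerobic one.

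The change of MUP1 differed between the 2 series. With oxygen it read 11.94, 11.78 and 12.25 early, 10.79 and 11.84 mid, and 12.29, 12.56 and 12.44 late, so the late samples were the 3 highest aerobic values, while the late anaerobic samples were among the 4 lowest of their series. The anaerobic change minus the aerobic one was -3.33 ± 0.70 (95% interval -4.85 to -1.81, adjusted p = 0.0356), the only call among the 10 genes, in a comparison that called 1.82% of all tested genes. With 1 array left out, the value ran from -4.06 to -2.79, and it was called in 5 of 16 cases, those without the aerobic 0 h, 9.6 h or 14.5 h or the anaerobic 0 h or 10.38 h array. It missed the threshold without the aerobic 4.1 h (adjusted p = 0.098), 6.85 h (0.0612), 27.25 h (0.0788), 42.65 h (0.106) or 53.95 h array (0.097), and without the anaerobic 4.35 h (0.0949), 16.88 h (0.052), 26.52 h (0.052), 35.67 h (0.0891), 42.85 h (0.106) or 50.85 h array (0.0609). The values without these arrays lay between -3.46 and -3.14. For the other 9 genes the difference lay between -0.31 (MET16, 95% interval -0.81 to 0.19) and 0.06 (MET6, -0.31 to 0.42). The late samples of the 2 series differed in nitrogen markers, with means of 15.40 to 15.43 with oxygen and of 10.61, 14.52 and 14.68 without it. The part of nitrogen limitation in these differences was not tested.

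Averaged over the 3 phases, MUP1 and SUL1 were lower without oxygen, and the other 8 genes did not differ by the test on the deposited scale. MUP1 differed by -2.38 ± 0.31, or 5.19-fold (adjusted p = 2.71e-05), although its anaerobic 0 h and 4.35 h samples lay within the aerobic values. SUL1 differed by -0.36 ± 0.12 (adjusted p = 0.0189), with overlapping samples, and missed the threshold without the anaerobic 26.52 h array (-0.32, adjusted p = 0.0611). This comparison called 70.3% of all tested genes, 8% higher and 62.3% lower without oxygen, and the median of all tested genes was -0.51. The 10 genes had a median of 0.01, and 9 of them lay above the median of all genes. Nitrogen limitation moved with this comparison: the marker mean was 15.48 and 15.45 in the aerobic mid samples and 10.05 and 10.49 in the anaerobic ones, and 5 of 5 markers were lower without oxygen, by changes from -4.17 (DAL80) to -0.80 (MEP2). Its part in the MUP1 and SUL1 differences was not tested.

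The direction of this comparison therefore depends on the scale. Relative to the median of all genes MUP1 was at -1.86, or 3.64-fold lower, and SUL1 at 0.15. With each array centred on its median, MUP1 was lower (-1.79, adjusted p = 0.000392), SUL1 was at 0.23 with an adjusted p of 0.102, and the remaining 8 genes were higher without oxygen. On that scale 30.5% of all tested genes were called higher and 22.8% lower. The 8 values ran from 0.42 for MET16 and 0.47 for MET3 to 0.76 for SUL2 and 0.86 for MET14. That of MET17 was 0.73 (adjusted p = 4.51e-06). With renewed quantile normalization, only SUL2 (0.57) and MET14 (0.58) of the 10 genes were called higher. MUP1 alone was called lower in that fit, and SUL1 missed the threshold (-0.14, adjusted p = 0.314). The share of all tested genes called higher or lower in that fit is not given here. The sources used here do not state whether both series were normalized together, and a shift of the whole scale and a difference in RNA cannot be told apart. Without the aerobic 14.5 h array, the aerobic mid group held the 9.6 h array alone. On the deposited scale the values were then 0.30 for SUL2, 0.49 for MET14, 0.24 for MET5, 0.17 for MET17 and 0.19 for MET6. Without the 9.6 h array instead, SUL2 was at 0.04, MET14 at 0.05, MET5 at -0.06 and MET6 at 0.02, so these differences rest on that array. For MET17 the lowest value with any 1 array left out was 0.10. MET17 was called higher without the anaerobic 4.35 h array (0.16, adjusted p = 0.0465), and MET16 was at -0.26 without the aerobic 9.6 h array. With both 0 h arrays and the aerobic 9.6 h array dropped, MET3 (-0.26), MET16 (-0.28) and MET10 (-0.20) joined MUP1 and SUL1 as lower on the deposited scale, beside 68.5% of all tested genes.

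The aerobic 9.6 h sample was the low point of the pathway. It held the lowest aerobic value of 7 of the 10 genes, and of 25% of all tested genes. Measured against the mean of the samples before and after it, MET14 was at -1.61, MUP1 at -1.26, MET5 at -0.88, SUL2 at -0.84 and MET6 at -0.64. MET16 was at -0.48, MET3 at -0.35, SUL1 at -0.32, MET10 at -0.30 and MET17 at -0.12, so every one of the 10 was below the mean of its neighbours. The median of the 10 was -0.56, that of all tested genes was 0.23, and the 5th and 95th percentiles of all genes were -2.96 and 1.86. These are values of 1 array, with no replicate, and that array stands apart from the other aerobic arrays.

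With both mid samples set against the mean of the early and late ones, none of the 10 genes passed the test in the aerobic series, where 0.633% of all tested genes were called. An unadjusted p under 0.05 was reached by 4 of them: MET14 (-0.92 ± 0.30, adjusted p = 0.0629), SUL2 (-0.52 ± 0.19, 0.0758), MET5 (-0.43 ± 0.17, 0.0965) and MET6 (-0.41 ± 0.12, 0.0571). All 4 passed when the 14.5 h array was left out and the 9.6 h array stood alone, at -1.57, -0.92, -0.87 and -0.66, where 17.1% of all tested genes were called lower. With the 9.6 h array left out and the 14.5 h array standing alone, MET14 was at -0.27 (adjusted p = 0.784), SUL2 at -0.13 (0.83), MET5 at 0.01 (0.975) and MET6 at -0.16 (0.663), so these changes rest on the 9.6 h array. Without the aerobic 0 h array MET14 (-1.07, adjusted p = 0.0193) and MET6 (-0.45, adjusted p = 0.0235) passed, beside 17.5% of all tested genes called lower. In the anaerobic series the mid samples gave 0 calls by limma among the 10 genes and 0% of all tested genes, with an unadjusted p under 0.05 for 0 of the 10 and 99 of all.

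The first anaerobic sample was the high point of that series. It held the highest anaerobic value of 7 of the 10 genes (SUL1, SUL2, MET3, MET5, MET10, MET17 and MUP1), and of 24.2% of all tested genes. At that sample the mean of the 3 genes expressed with oxygen was 14.64, against 13.04 at 4.35 h. The nitrogen marker mean was 12.84, against 10.93 at 4.35 h. The part of these markers in the high values was not tested. In the aerobic series the 0 h sample held the highest value of 0 of the 10, and of 8.38% of all tested genes.

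The 10 genes did not move as a single block. Over the 45 pairs the median Pearson correlation across the 16 arrays was 0.39, with values from -0.37 to 0.94. These correlations describe 16 serial arrays that share their culture and normalization. MET14 and MET6 correlated at 0.94 with all arrays and at 0.81 without the aerobic 9.6 h array, and SUL2 and MET5 at 0.93 and 0.71. The pair of MET5 and MET6 went from 0.85 to -0.21 when that array was left out. The 2 sulfite reductase subunits, MET5 and MET10, correlated at 0.56 with all arrays and at 0.87 without it. SUL1 and MUP1 correlated at 0.77 either way.

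Outside the sulfur genes, the 5 genes whose pattern over the 16 arrays was most like the mean of the 10 were FUI1, a uridine permease (Pearson correlation 0.91), TOS6, HO, MDJ1 and POL1 (0.89 each). Each of the 10 was first centred on its own mean, so MUP1, with the widest range, weighs most in that mean. FUI1 read 13.02 and 12.31 at the aerobic and anaerobic 0 h samples, 9.27 at aerobic 9.6 h, and 9.17 and 10.13 in the last 2 anaerobic samples. For MUP1 by itself, a choice made after its values were seen, the closest genes were ROX1, the heme-dependent repressor of hypoxic genes, and SFK1, both at 0.97. ROX1 read 11.74, 11.35, 9.61, 9.23, 8.35, 8.41, 8.53 and 8.51 along the anaerobic series and lay between 11.09 and 12.15 in the aerobic one. Its anaerobic drop thus lay at the same samples as that of MUP1. For the other 9 genes, also chosen afterwards, the closest were the ribosomal protein genes RPS9A (0.89), RPS22B (0.88) and RPL9B (0.87), and RPS9A read 10.06 at aerobic 9.6 h and between 12.78 and 13.99 on the other 15 arrays.

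Among 39 further sulfur genes in 5 lists, 38 could be tested and SOA1 is not analysed here. With oxygen, 2 rose and 3 fell from early to late, 0 were called without oxygen and 0 in the difference of the changes, where 8 and 7 had an unadjusted p under 0.05. Of all tested genes 15.5%, 6.04% and 1.82% were called in these comparisons, so the 5 calls among 38 genes with oxygen are near the background, and so are the counts per list that follow. The median change of the 38 was -0.05 with oxygen (all genes 0.10) and -0.13 without it (all genes 0.00). Each of the 5 calls held with any 1 array left out, but with the 4 lowest set against the 4 highest feed concentrations MMP1 (adjusted p = 0.053), MUP3 (0.0628), MHT1 (0.0642) and HOM2 (0.0952) missed the threshold, as HOM2 did with a slope over feed glucose (0.0602). With both 0 h arrays and the aerobic 9.6 h array dropped, 11 rose and 15 fell with oxygen, where 33.1% of all tested genes rose and 21.4% fell. Without oxygen 5 rose and 11 fell, where 20.9% of all tested genes rose and 19.7% fell.

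Among the other uptake, scavenging and sparing genes, 1 of 9 tested rose and 1 fell with oxygen. MUP3, the low-affinity methionine permease, read 12.59, 12.34 and 12.29 early, 13.05 and 13.09 mid, and 13.43, 13.54 and 13.54 late, and rose by 1.09 ± 0.19 (adjusted p = 0.00401). MMP1, the S-methylmethionine permease, read 13.66, 13.21 and 13.40 early, 13.54 and 13.09 mid, and 12.36, 11.65 and 11.30 late, a change of -1.66 ± 0.33 (adjusted p = 0.00795). Early and late samples did not overlap in either gene, and the 2 permeases moved in opposite directions. The list's median was 0.03 with oxygen and -0.84 without it. JLP1, a sulfonate dioxygenase known for its rise in sulfur-starved cells, lay under 4 log2 units on 13 of 16 arrays and between 2.00 and 5.33 on all. BDS1 and SSU1 of the same list lay between 8.32 and 12.53 and between 11.42 and 14.77. Whether the cells were short of sulfur was not tested. PDC6, a pyruvate decarboxylase isoform poor in sulfur amino acids, read 13.06, 8.20 and 7.19 early, 12.61 and 14.00 mid, and 13.52, 13.35 and 13.24 late with oxygen, so its 0 h sample lay with the late samples.

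**Figure D4:**
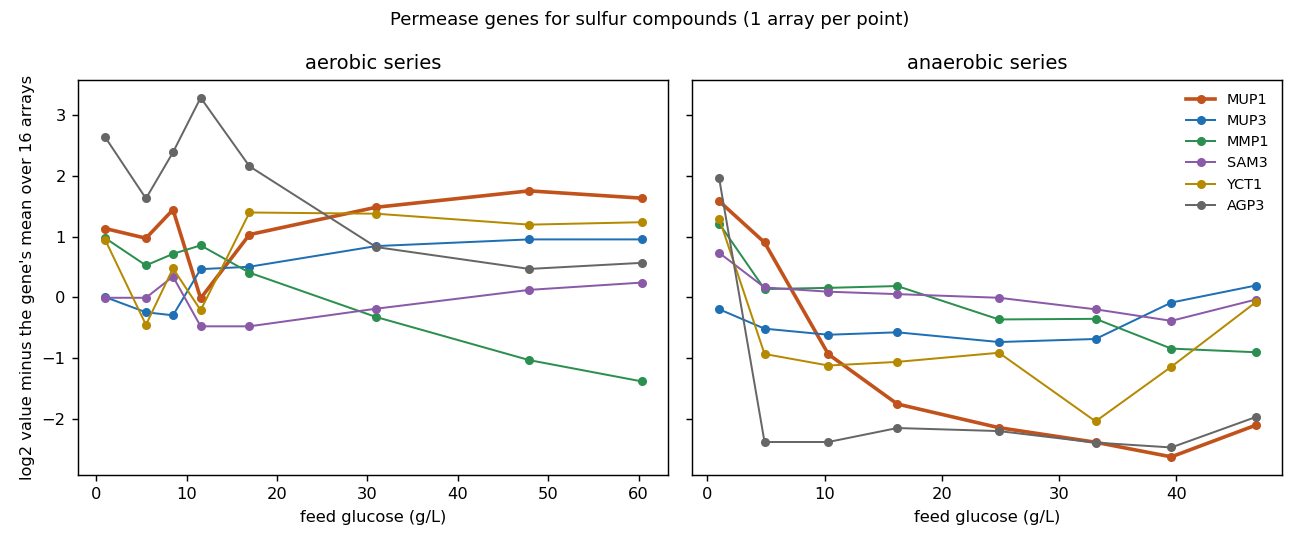
The log2 value of the permease genes minus each gene's own mean over 16 arrays (vertical axis) is plotted against feed glucose in g/L (horizontal axis), with the aerobic series on the left and the anaerobic series on the right. With oxygen the line of MUP3 ends above its mean and that of MMP1 below it, and without oxygen MUP1 falls over the first 4 samples, while AGP3 drops in the first step.

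In the S-adenosylmethionine cycle, 1 of 6 genes fell with oxygen. MHT1, which uses S-methylmethionine to methylate homocysteine and lies next to MMP1 in the genome, read 12.51, 13.40 and 13.24 early, 11.34 and 11.91 mid, and 11.18, 10.64 and 10.45 late, a change of -2.29 ± 0.32 (adjusted p = 0.00138). Its early and late samples did not overlap. In the anaerobic series MHT1 read 13.08, 12.24 and 12.87 early and 12.17, 11.47 and 11.40 late, and MMP1 read 13.90, 12.82 and 12.84 early and 12.33, 11.84 and 11.78 late, and neither passed the test. Of the cysteine, transsulfuration and glutathione genes, 1 of 7 rose with oxygen. IRC7, a beta-lyase of cysteine conjugates, read 5.31, 8.11 and 7.68 early, 9.91 and 9.92 mid, and 10.82, 10.95 and 11.32 late, a rise of 4.00 ± 0.61 (adjusted p = 0.00222), and without oxygen it read 8.77, 8.73 and 8.84 early and 9.53, 11.01 and 11.24 late. Of the genes for the sulfite reductase cofactor, the homoserine branch and the folate side, 1 of 10 fell with oxygen. HOM2, aspartic semialdehyde dehydrogenase, read 15.16, 15.17 and 15.10 early and 14.37, 14.27 and 14.37 late (-0.80 ± 0.14, adjusted p = 0.00313). Of the 6 regulators 0 passed the test along either series, and their medians were 0.26 with and 0.04 without oxygen.

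**Figure D5:**
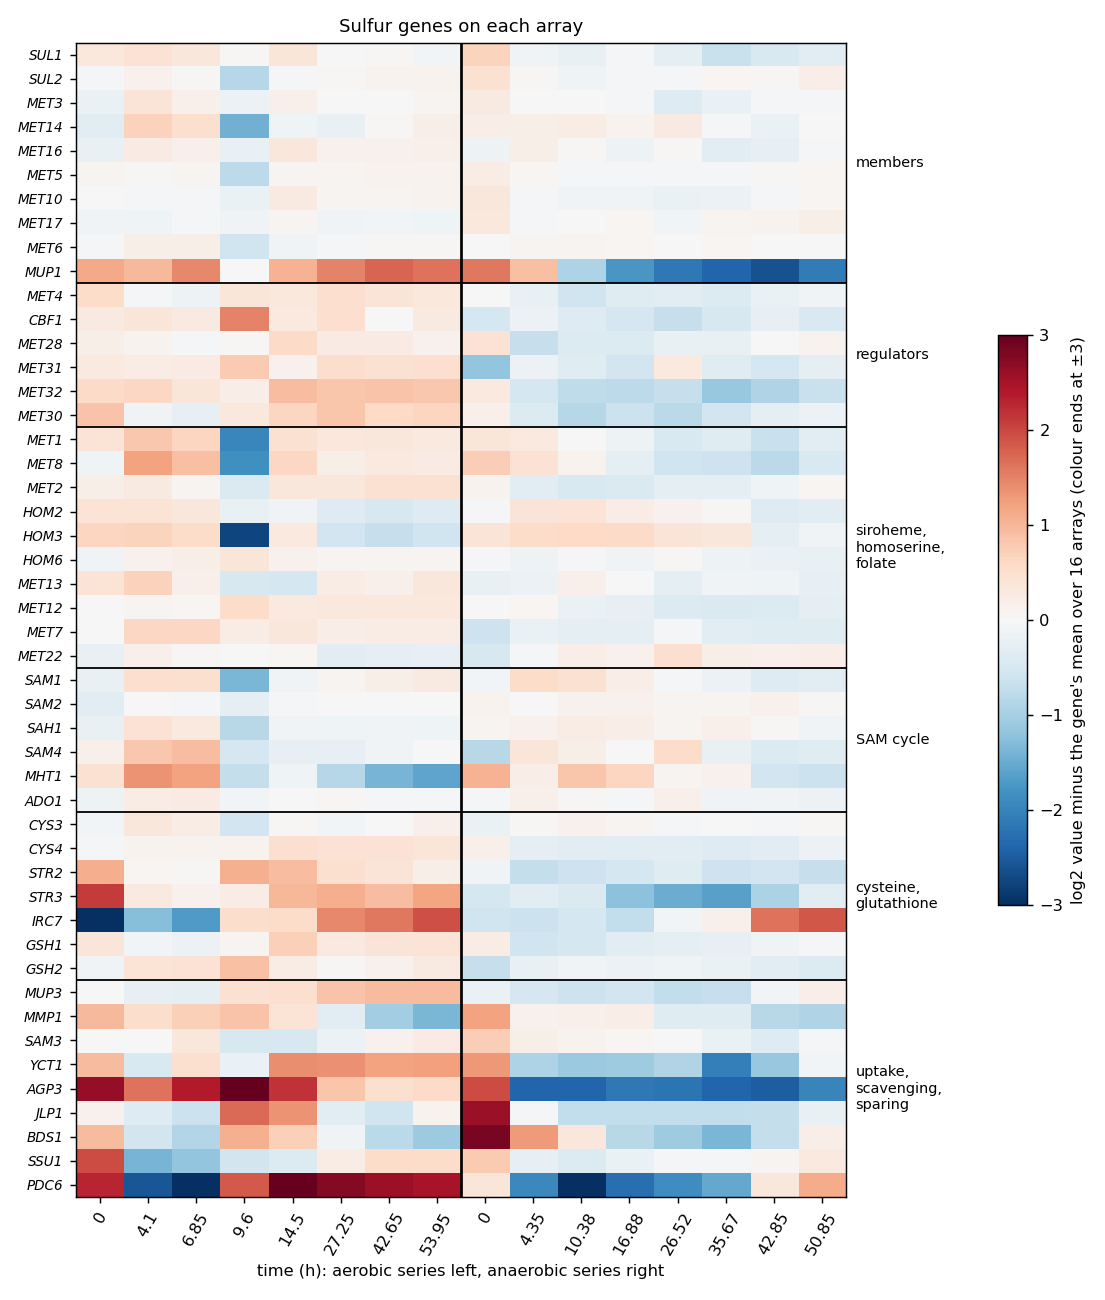
Each row is a sulfur gene and each column an array in order of time within its series. The colour is the log2 value minus the gene's mean over the 16 arrays, and the strongest colours belong to genes such as PDC6, AGP3, IRC7 and MUP1 and not to the sulfate assimilation enzymes.

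Averaged over the phases, 19 of the 38 other sulfur genes were lower without oxygen and 1 was higher on the deposited scale, with a median of -0.35 against -0.51 for all genes. Over all tested genes 62.3% were lower and 8% higher. The regulators were lower in 6 of 6 cases, at values from -1.29 (MET32) to -0.39 (MET28), a difference that MET28 kept in 7 of 16 cases with 1 array left out. With arrays centred on their medians, only MET32 among the regulators was lower, 0 were higher, and of all 38 genes 12 were higher and 4 lower, against 30.5% and 22.8% of all tested genes. AGP3, an amino acid permease, had the largest difference, -3.65, and read 8.39 to 11.21 with oxygen and 5.45 to 9.88 without it, the 0 h sample being the highest of the anaerobic values. PDC6 was lower at -2.51, STR3, a cystathionine beta-lyase, at -1.76, and YCT1, a cysteine permease, at -1.51. With arrays centred on their medians PDC6 (-1.92, adjusted p = 0.0582) and YCT1 (-0.92, 0.0679) missed the threshold, and YCT1 did so with renewed quantile normalization too (-0.94, 0.0648). SAM2, an S-adenosylmethionine synthetase, was the gene called higher, at 0.19, and missed the threshold without the anaerobic 16.88 h array (0.18, adjusted p = 0.0546) and with renewed quantile normalization (0.13, adjusted p = 0.139).

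At aerobic 9.6 h the 10 genes for the cofactor, the homoserine branch and the folate side spread widely, from -3.18 to 0.36 with a median of -0.33. Against the mean of the samples before and after, HOM3, aspartate kinase, was at -3.18, and MET8 and MET1, which make the siroheme of sulfite reductase, were at -2.60 and -2.50, while HOM2 was at -0.34, HOM6 at 0.23 and MET12 at 0.36. CBF1 was at 1.22 and PDC6 at 2.01, above their neighbours. The 6 genes of the S-adenosylmethionine cycle lay from -1.56 to -0.20 with a median of -0.89, lower than the -0.56 of the 10 genes. The medians were 0.20 for the regulators, -0.18 for the cysteine and glutathione list and 0.36 for the uptake, scavenging and sparing list. In the test of both mid samples MET13 was the 1 call of the 38 genes (-0.83, adjusted p = 0.0347), where 0.633% of all tested genes were called. MET13 is a methylenetetrahydrofolate reductase that makes the methyl donor for Met6. The call was kept in 7 of 16 cases with 1 array left out, at values from -0.90 to -0.77. At 9.6 h itself MET13 was at -0.31 against its neighbours, so its value does not rest on that array alone.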

How the data were processed

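The deposited values are log2 signals of single-channel Affymetrix arrays, made by the authors with GCRMA per the submitters' processing notes, 1 value per probe set and array. The sources used here give neither a version nor whether both series were normalized together. Base 2 was inferred from the range of the values. Of 5716 probe sets, 5498 had 1 gene symbol and 218 had none and were left out. The probe set of highest mean was used for 47 genes with several. Of 5449 genes, all matched to RefSeq, 5213 were tested, those with 4 log2 units or more on 3 or more arrays.

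Phases were set by the feed glucose in the labels. All 16 arrays entered 1 limma model (limma 3.58.1, R 4.3.3) with 6 cell means, using eBayes with intensity trend and leaving 10 residual degrees of freedom. Benjamini-Hochberg adjusted p under 0.05 over all tested genes was called. The scripts were tested on simulated data with independent scatter. There, 55% of genes changed by 1 log2 unit were called for the aerobic late minus early change. The share was 60% for the anaerobic change and 35% for the difference of the changes. Alternatives were other filters, renewed quantile normalization, centring on array medians, other variance models, slopes over feed glucose, other phase limits, each series alone, and leaving out arrays. The number of arrays limits the precision.

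The members and the gene lists were chosen with earlier results of these data known. All 10 members are described. Of the other lists, up to 4 called genes of largest change per comparison are named, with exceptions chosen after their values were seen (JLP1, BDS1, SSU1, PDC6 along the series, and the genes named at aerobic 9.6 h).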

Additional observations from a re-analysis of the deposited data

Results flagged for a closer look

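The late minus early change of MUP1 differed between the anaerobic and the aerobic series, by -3.33 ± 0.70 log2 units in the test of the difference itself (limma, adjusted p = 0.0356). The change was -2.89 without oxygen and 0.44 with it. With 1 array left out the difference ran from -4.06 to -2.79 and passed the threshold in 5 of 16 cases. ROX1, which reads along with MUP1 at 0.97 over the 16 arrays, and the oxygen markers moved over the same anaerobic samples, and their part in the result was not tested. The nitrogen marker mean lay between 15.40 and 15.43 in the aerobic late samples and was 10.61, 14.52 and 14.68 in the anaerobic ones. Its part was not tested either.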

How the results depend on the processing

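No paired analysis was possible, because each oxygen condition is 1 series of serial samples and the labels name no replicates. With a mid array left out, the lone sample is assumed to vary like the other groups. The cause of the changes below was not tested. Counts below given without the share of all tested genes called in the same fit are not read as results about the 10 genes. With 1 array left out, the number of the 10 genes called lower ran from 0 to 1 for the aerobic late minus early change, 1 to 2 for the anaerobic one, 0 to 1 for their difference, 1 to 3 for anaerobic minus aerobic and 0 to 4 for the aerobic mid samples, and called higher without oxygen from 0 to 5. With renewed quantile normalization 2 were higher and 1 lower without oxygen, and 1 was lower in the aerobic mid samples. Centring gave 8 and 1 without oxygen, where 30.5% of all tested genes were called higher and 22.8% lower. Fitting each series alone gave 0 lower in the anaerobic series. Setting the 4 lowest against the 4 highest feed concentrations gave 0 there and 0 in the difference. Without the 0 h arrays 1 was lower in the aerobic late samples and 3 in the aerobic mid samples. Without these and the aerobic 9.6 h array 3 were lower in each late comparison and 5 without oxygen.

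Without oxygen these values turned direction under centring: SUL1 0.23, MET3 0.47, MET16 0.42, MET10 0.51, MET4 0.01, MET28 0.20, MET2 0.18, HOM6 0.36, MET13 0.42, MET12 0.08, ADO1 0.56, CYS4 0.08 and GSH1 0.07. Under quantile normalization MET28 turned to 0.13 and MET13 to 0.30. STR2 turned to 0.30 in the aerobic late samples without the 3 arrays. Over all genes, the calls ran from 278 to 1643 with 1 array left out and from 122 to 2841 otherwise (aerobic late minus early, 807 as reported), from 74 to 612 and 95 to 2120 (anaerobic, 315), from 27 to 233 and 10 to 509 (difference, 95), from 3389 to 4081 and 2533 to 4129 (anaerobic minus aerobic, 3663), from 2 to 1756 and 7 to 2223 (aerobic mid, 33), and from 0 to 5 and 0 to 0 (anaerobic mid, 0).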
